A study of Homo sapiens with 24 samples.

Results

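SLBP, the stem-loop binding protein, was mapped on RNA by eCLIP in 293T cells after digestion with a larger or a smaller amount of RNase I, and the peaks of the 2 digestions are compared here. The comparison holds 4 immunoprecipitations of the 24 samples in the series: SLBP replicates 1 and 2, digested with 40 U of RNase I, and SLBP replicates 3 and 4, digested with 5 U. They were chosen by their titles and their labelled RNase amount, and their peak lists hold 68479 of the 269336 peaks in the 7 lists of the series. The other 3 lists come from 2 RBFOX2 immunoprecipitations and 1 IgG control. 293T is an established human embryonic kidney line. All 4 SLBP samples share the cell line, crosslinking by ultraviolet irradiation (254 nm, 400 mJ/cm2), and 1 lot of antibody against SLBP from MBL. Each also has an input of its own, labelled with the same RNase amount as its immunoprecipitation, so a fold over input compares 2 samples digested alike. Replicate number and RNase amount change together, so the amount cannot be told apart from anything else that separated replicates 1 and 2 from replicates 3 and 4. The labels do not say that replicates came from separate cultures, and p-values measure only how these libraries vary, a spread that may be technical.

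Replication-dependent histone mRNAs carry no poly(A) tail and end just after a conserved stem-loop, the element that SLBP binds. The protein takes part in their 3' end processing, export, translation and decay. In eCLIP, RNA is crosslinked to protein, trimmed with RNase, precipitated, and converted to cDNA that often stops at the crosslinked base. RNase I cuts single-stranded RNA with little preference for the base, and its amount sets how long the fragments on the protein are.

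Each list gives a peak as an interval with a strand, a −log10 p and a log2 fold over the paired input, all as deposited by the authors. A peak is called enriched where its −log10 p is at least 5 and its log2 fold at least 3, which is 8-fold. Peaks of 1 list that touch on a strand are joined into a site. Histone windows are the regions of the 4 histone gene clusters on hg19: HIST1 at chr6:26000000-28000000, HIST2 at chr1:149700000-149900000, HIST3 at chr1:228600000-228700000 and HIST4 at chr12:14900000-15000000. Places in them are named by position and strand, since no hg19 annotation was used here, and a window can hold genes other than histone genes.

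The lists were shorter at 5 U and their folds over input lower. At 40 U they held 23034 and 18349 peaks, and at 5 U 16974 and 10122. The median fold over all peaks was 1.57 and 1.46 log2 at 40 U against 0.66 and 1.17 at 5 U. Peaks below their input made up 7.02% and 9.45% of the lists at 40 U and 23.4% and 17.0% at 5 U. The lists carry no read counts, so the depth behind these values is unknown. With 2 libraries against 2, the exact permutation test over libraries cannot give a p under 0.33, and every such p below is two-sided.

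A larger share of the enriched sites lay in the histone windows at 5 U, while their number overlapped. There were 160 and 112 enriched sites at 40 U and 116 and 116 at 5 U. In the windows lay 126 and 93 of them at 40 U, and 108 and 108 at 5 U. The share in the windows was 78.8% and 83.0% at 40 U and 93.1% in both 5 U libraries, means of 80.9% ± 3.0 and 93.1% ± 0 (SD, n = 2 each; exact permutation p = 0.33). That difference of 12.2 percentage points was 3.86 points with stricter limits (−log10 p of at least 10, log2 fold of at least 4) and 33.2 points with −log10 p of at least 3. Inside the windows, as over the genome, the number of enriched sites overlapped between the amounts.

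Enriched sites over the whole genome were wider at 5 U, but those in the windows overlapped in width. Over the genome, the median width was 43.5 and 50.5 nt at 40 U and 59 and 56 nt at 5 U, means of 47 ± 4.9 and 57.5 ± 2.1 nt (SD, n = 2 each; exact permutation p = 0.33). The difference of 10.5 nt was 1 nt for peaks taken singly, as deposited, 3.5 nt with a log2 fold of at least 2 and 5.5 nt with −log10 p of at least 3. In the windows the median width of enriched sites was 41 and 61 nt at 40 U and 60 and 54.5 nt at 5 U (exact permutation p = 1). Together these sites covered 7279 and 6214 nt at 40 U and 8164 and 7496 nt at 5 U. Over all sites, enriched or not, the median width was 32 and 33 nt at 40 U and 35 and 36 nt at 5 U.

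To set the edges against 1 fixed point, nucleotides enriched in all 4 libraries were joined within 1000 nt on a strand. This gave 42 loci in the windows. Of these, 33 lay in HIST1, 6 in HIST2, 2 in HIST3 and 1 in HIST4, with 21 on each strand. The 3'-most nucleotide enriched in all 4 libraries is called the anchor of the locus. It stands in for the annotated mRNA 3' end, and because it is set by the libraries themselves, it is the end of the shortest of the 4 signals. The 5' reach is the length of unbroken enriched signal from the anchor towards the 5' end, and the 3' overhang is the unbroken enriched signal past the anchor.

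At 5 U, SLBP signal reached further 5' from the anchor. The median 5' reach over the 42 loci was 73.5 and 89.5 nt at 40 U and 116.5 and 119 nt at 5 U, and both 5 U libraries lay above both 40 U libraries. The means of these medians were 81.5 ± 11.3 and 117.75 ± 1.8 nt (SD, n = 2 each; exact permutation p = 0.33). Taken locus by locus, the median difference was 13 nt, with a longer mean reach at 5 U at 29 loci and a shorter one at 13. Both 5 U libraries exceeded both 40 U libraries at 23 loci (54.8%), and the reverse held at 6 (14.3%). The 5' edge, a different measure, is given below for 2006 places with a site in all 4 libraries. Of those places, 14.7% had both 5 U edges further 5' than both 40 U edges, and 18% further 3'. For scale, the 2 libraries of 1 amount differed at the median locus by 4 nt at 40 U and by 3.5 nt at 5 U. The difference depends on the libraries used: it was 6 nt without 40 U replicate 1, 6.75 nt without 5 U replicate 4 and 20.5 nt without 40 U replicate 2, with anchors set anew each time.

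**Figure D1:**
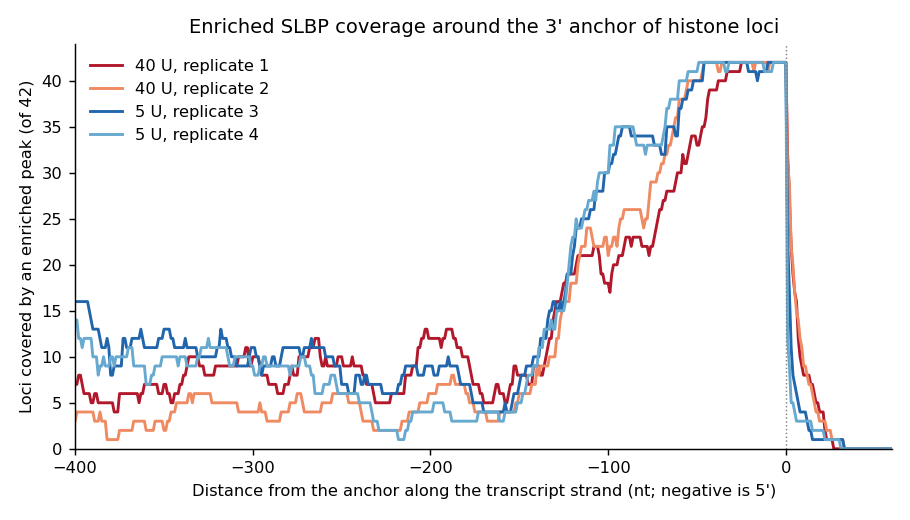
Number of the 42 histone loci (y axis) covered by an enriched SLBP peak at each distance from the anchor in nt along the transcript (x axis, negative is 5'), 1 line per library. The lines of both amounts lie together at the anchor; at 90 nt on its 5' side 35 loci were covered in both 5 U libraries and 23 and 26 at 40 U, and past the anchor the 5 U lines drop sooner.

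The added coverage lay in a band from about 60 to 120 nt 5' of the anchor and again near 400 nt, the end of the profile. At 60 nt, 30 and 38 of the 42 loci were covered at 40 U and 37 and 40 at 5 U, which overlap. At 100 nt, 18 and 21 loci were covered at 40 U and 30 and 30 at 5 U. At 120 nt the counts had drawn together again, with 19 and 18 at 40 U and 21 and 23 at 5 U. At 200 nt the amounts overlapped, with 12 and 6 loci at 40 U and 9 and 4 at 5 U. Further 5' they were apart once more: at 350 nt, 7 and 2 loci were covered at 40 U and 13 and 10 at 5 U, and at 400 nt 7 and 3 against 16 and 14. The plot of coverage around the anchor shows the nearer band as a shoulder in the 5 U lines and the farther one at its left edge.

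The gain was in loci of intermediate reach and not in the longest ones. A reach of at least 100 nt was seen at 12 and 16 loci at 40 U and at 26 and 27 loci at 5 U. A reach of at least 150 nt was seen at 6 and 5 loci at 40 U and at 6 and 4 at 5 U. The longest reach in any library was 203 nt, found in 40 U replicate 1 and in 5 U replicate 3.

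**Figure D2:**
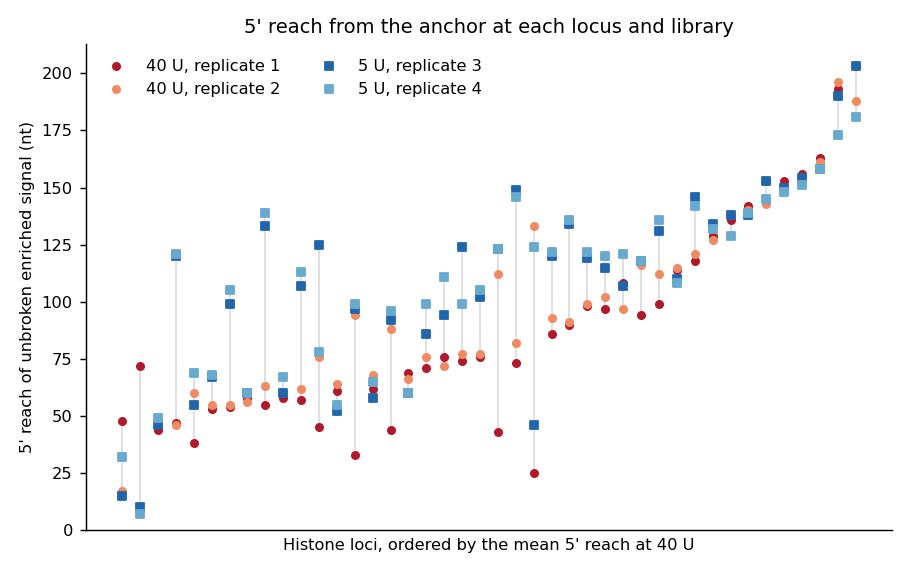
5' reach in nt (y axis) at each of the 42 loci, ordered by the mean reach at 40 U (x axis); circles are the 40 U libraries and squares the 5 U libraries, and grey lines join the 4 values of a locus. The squares sit above the circles at 23 loci, and loci with a reach over 150 nt at 40 U show little gap.

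The loci named first, here and below, had the largest gains in mean reach of the 42, where the median difference was 13 nt. At chr1:228646199-228646254 (+), in HIST3, the reach was 55 and 63 nt at 40 U and 133 and 139 nt at 5 U. At chr6:27792177-27792244 (+) it was 47 and 46 nt at 40 U and 120 and 121 nt at 5 U. At the second locus part of the gap is a break in the enriched 40 U signal, since the whole place there, broken or not, was 75 and 104 nt wide at 40 U and 124 and 124 nt at 5 U.

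A similar gap appeared on the other strand. At chr6:26188955-26189009 (−) the reach was 54 and 55 nt at 40 U and 99 and 105 nt at 5 U. At chr6:26217605-26217662 (+) it was 57 and 62 nt at 40 U and 107 and 113 nt at 5 U. The median difference was 11.5 nt over the 21 loci of the plus strand and 18 nt over the 21 of the minus strand.

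At chr6:27806746-27806886 (+) the reach was 73 and 82 nt at 40 U and 149 and 146 nt at 5 U, but the outer width of the whole place was 144 and 141 nt at 40 U and 150 and 147 nt at 5 U. There the outer extent differed by a few nt, and the enriched signal at 40 U was interrupted where that at 5 U ran through. Other loci went the opposite way or did not move. At chr1:149783602-149783831 (−) the reach was 72 and 9 nt at 40 U and 10 and 7 nt at 5 U. At chr6:26124419-26124913 (+) it was 193 and 196 nt at 40 U and 190 and 173 nt at 5 U, and at chr6:26158484-26158832 (+) 156 and 152 nt against 154 and 151 nt.

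On the 3' side the order was turned: 5 U signal ended nearer to the anchor. The median overhang was 3 and 3 nt at 40 U and 1 and 0 nt at 5 U (exact permutation p = 0.33), with a median difference of −1.5 nt, which was −0.75 nt without 5 U replicate 4. The mean overhang was shorter at 5 U at 32 loci, longer at 6 and equal at 4. Both 5 U libraries ended short of both 40 U libraries at 20 loci (47.6%), and the reverse held at 2 (4.76%). For the 3' edge, a different measure, these shares were 11.9% and 24.5% over the 2006 places with a site in all 4 libraries. At 5 nt past the anchor, 17 and 17 loci were still covered at 40 U and 7 and 4 at 5 U. An overhang of 0 was found at 10 and 11 loci at 40 U and at 19 and 30 loci at 5 U. By the definition of the anchor, at least 1 of the 4 libraries is at 0 at every locus.

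The overhang was long at a few loci. At chr6:27805687-27806033 (−) it was 26 and 25 nt at 40 U and 6 and 0 nt at 5 U. At chr6:27778193-27778287 (+) it was 21 and 16 nt at 40 U and 1 and 0 nt at 5 U, and at chr6:26027145-26027197 (−) 18 and 18 nt against 0 and 1 nt. At chr6:26104200-26104496 (+) 40 U replicate 1 had 0 nt, and 40 U replicate 2 had 12 nt beside 14 and 14 nt at 5 U. At the first 3 loci the 5 U signal ended well short of the 40 U signal, and the last is 1 of the 2 where it extended further.

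Fold over input at the anchor was lower at 5 U. The median over the 42 loci was 7.81 and 8.58 log2 at 40 U and 7.13 and 7.33 at 5 U, means of 8.20 ± 0.54 and 7.23 ± 0.14 (SD, n = 2 each; exact permutation p = 0.33). The median difference was −1.13 log2, with 36 loci lower and 6 higher at 5 U. It ran from −1.75 without 5 U replicate 4 to −0.71 without 40 U replicate 2. The amounts were apart downwards at 24 loci (57.1%) and upwards at 1 (2.38%). Over the 2006 places with a site in all 4 libraries, described below, these shares were 35.3% and 8.18%. The 2 libraries of 1 amount differed at the median locus by 0.76 log2 at 40 U and 1.00 at 5 U, nearly as much as the amounts did. Beside this stand the lower folds of the 5 U lists as a whole, and their part in the result was not tested.

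The gap in mean fold was widest at the anchor and smaller in the bins further 5'. From the nearest to the farthest bin the loci fall from 42 to 15, so the loci compared change together with distance. Within 10 nt of the anchor the mean fold was 7.89 and 8.67 log2 at 40 U and 6.91 and 7.33 at 5 U, a difference of −1.16 (exact permutation p = 0.33). From 61 to 100 nt it was 6.46 and 7.52 at 40 U and 5.69 and 7.10 at 5 U, over 30 loci, and the amounts overlapped (exact permutation p = 0.667). From 201 to 400 nt it was 4.78 and 5.10 at 40 U and 4.17 and 5.22 at 5 U, over 15 loci (exact permutation p = 1).

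**Figure D3:**
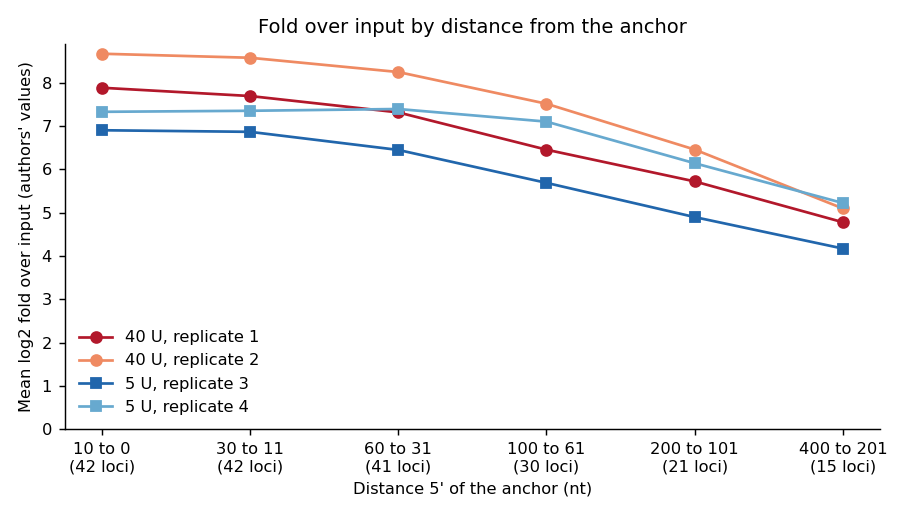
Mean log2 fold over input (y axis, the authors' values) in 6 bins of distance 5' of the anchor (x axis, nt, with the number of loci that had a value in all 4 libraries), 1 line per library. Within 10 nt both 5 U lines lie below both 40 U lines, a mean difference of −1.16 log2; from 31 nt on, 5 U replicate 4 lies at or above 40 U replicate 1.

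The fall of fold from the anchor to the farthest bin was larger at 40 U, and over shorter distances the amounts overlapped in part. Over the 15 loci with values in both bins, fold dropped from the anchor to the bin of 201 to 400 nt by 3.004 and 3.65 log2 at 40 U and by 2.62 and 1.74 at 5 U. Those are means of 3.33 ± 0.46 and 2.18 ± 0.62 (SD, n = 2 each; exact permutation p = 0.33). The drop was smaller at 5 U at 14 of the 15 loci, with the amounts apart in that direction at 9 and in the other at 0. A drop needs an anchor, so no share over all matched places stands beside these counts. To the bin of 61 to 100 nt, over 30 loci, the drop was 1.57 and 1.34 at 40 U and 1.49 and 0.41 at 5 U, which overlap (exact permutation p = 0.667). In both bins 5 U replicate 3 lay nearer to the 40 U libraries than 5 U replicate 4 did. A drop is a difference within 1 library, so a constant shift of that library's folds leaves it as it is. Whether the lower folds at 5 U are such a shift was not tested.

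The loss of fold at the anchor varied between loci. At chr1:149858554-149858952 (+), in HIST2, it was 8.92 and 8.37 log2 at 40 U and 5.64 and 6.07 at 5 U. At chr6:27806746-27806886 (+), the locus with the filled interruption, it was 10.81 and 11.18 at 40 U and 7.48 and 9.13 at 5 U. At chr6:26157255-26157341 (+) it was 9.13 and 11.54 at 40 U and 7.43 and 8.01 at 5 U. In each of the 3 the amounts did not overlap. At chr6:27775260-27775372 (−), the single locus apart in the other direction, it was 7.22 and 8.09 at 40 U and 8.17 and 8.83 at 5 U.

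Some places upstream of anchors in the histone windows were enriched at 5 U alone, in numbers that depended on the limits and the libraries. Among the 133 enriched places in the windows, 65 were enriched in all 4 libraries, 11 in both 5 U libraries and neither 40 U library, and 3 in both 40 U libraries and neither 5 U library. Outside the windows the same counts were 4, 0 and 3 of 43. Of the 11 places at 5 U, 10 lay between 127 and 623 nt upstream of an anchor on its strand, and these 10 had no deposited peak of any strength at 40 U. The counts rest on pairs of libraries: with the stricter limits they were 5 at 5 U and 9 at 40 U, and without 40 U replicate 2 they were 13 and 23, both with the order turned. They were 21 and 7 without 40 U replicate 1, 18 and 8 without 5 U replicate 3, and 17 and 5 without 5 U replicate 4.

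In single 5 U libraries these 10 places were 4 to 61 nt wide. The nearest to its anchor was chr6:26157199-26157214 (+), at 127 nt, with 5.45 and 6.23 log2 over 16 and 4 nt at 5 U. The farthest was chr6:26056606-26056641 (−), at 623 nt, with 3.80 and 5.43. At chr6:27777865-27777906 (+), 381 nt upstream, the folds were 4.60 and 6.26. All 3 belong to loci with at least 7.30 log2 at the anchor in every library, where enrichment in all 4 is set by the definition of the anchor.

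The place outside this pattern was chr1:149813797-149813920 (−), in HIST2, with 9.58 and 9.34 log2 at 5 U over 124 and 116 nt. At 40 U it had no peak in replicate 1 and a peak of 54 nt with 3.36 log2 in replicate 2 that missed the limit on p. It was the strongest of the 14 places enriched at 1 amount only in the windows. Of the 3 places at 40 U alone, chr1:149783433-149783475 (−) had 6.45 and 5.80 log2 and lay 169 nt downstream of an anchor. The other two were chr1:149822878-149823001 (+), with 5.49 and 5.80, and chr6:26046060-26046096 (+), with 6.05 and 5.50 at 40 U and a peak of 4.12 in 5 U replicate 3 that missed the limit on p.

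Matched places compare the amounts without an anchor, and they are a different unit from the loci. A place joins sites of different libraries that overlap on a strand by at least 1 nt, and a matched place has a site in all 4 libraries, enriched or not. There were 2006 matched places, 73 of them in the histone windows and 1933 outside. Over all 2006, limma with Benjamini-Hochberg adjustment called 1 place for fold (0.0499%), and 0 (0%) each for width, 5' edge and 3' edge. For fold it called 14 places without 40 U replicate 1, 9 without 40 U replicate 2 and 2 without 5 U replicate 3. In these fits 1 amount has a single library, which is assumed to vary like the 2 of the other amount. At an unadjusted p under 0.05 it passed 203 places for fold, 169 for width, 193 for the 5' edge and 172 for the 3' edge, of which 22, 8, 18 and 10 lay in the windows. The called place lies outside the windows and is described with the other such places, so no place in the windows passed the test.

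Fold at the window places was 6.84 and 7.19 log2 at 40 U and 5.64 and 6.52 at 5 U, as medians per library, with a median difference of −0.73 (exact permutation p = 0.33). That difference was −1.17 without 5 U replicate 4, −0.41 without 5 U replicate 3 and −0.44 without 40 U replicate 2. It was lower at 5 U at 56 places and higher at 17. Both 5 U libraries lay below both 40 U libraries at 33 places, 45.2%, where the share over all matched places was 35.3%. They lay above at 4 places, 5.48%, against 8.18% over all. Outside the windows the median difference was −0.38, from medians of 0.53 and 0.36 at 40 U and −0.12 and 0.25 at 5 U.

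A lower fold at 5 U was thus also found at weak places across the genome. The median fold in the windows exceeded that outside by 6.31 and 6.83 log2 at 40 U and by 5.76 and 6.27 at 5 U. That is a difference of −0.55 with both 5 U values below both 40 U values (exact permutation p = 0.33). With folds averaged over the pieces of a site by width, it was −0.41 and the amounts overlapped (exact permutation p = 0.667). With each library centred on its own median, the difference at the window places was −0.32 (exact permutation p = 0.667).

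**Figure D4:**
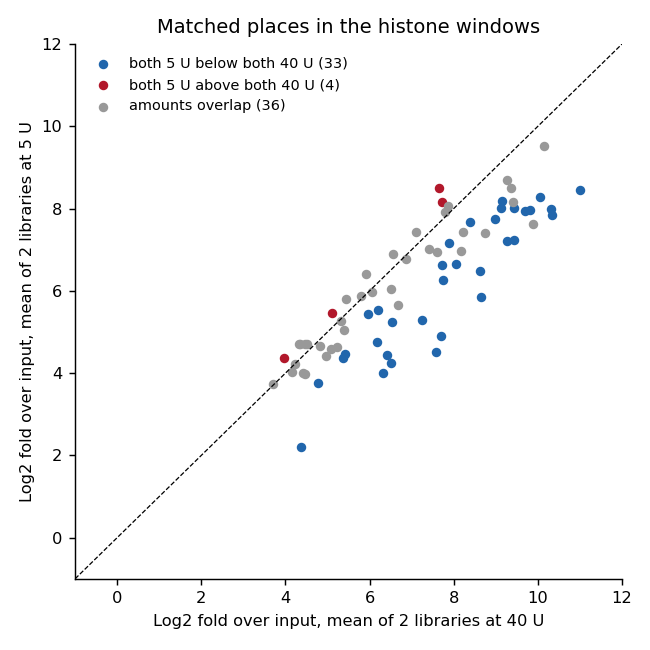
Log2 fold over input at the 73 matched places in the histone windows, as the mean of the 2 libraries at 40 U (x axis) and at 5 U (y axis), with the line of equality dashed. Blue marks the 33 places with both 5 U libraries below both 40 U libraries, red the 4 places with the reverse and grey the 36 that overlap; the blue points run down to about 3 log2 below the line.

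The 5' edge lay further 5' at 5 U more often in the windows than over all matched places, a difference that was not tested. Edges are counted in nt along the transcript, positive towards the 3' end. The median difference at the window places was −3 nt, which is further 5' at 5 U (exact permutation p = 0.33), and outside it was 0.5 nt. Both 5 U libraries lay further 5' than both 40 U libraries at 33 window places, 45.2%, where 14.7% of all matched places did so. They lay further 3' at 11 places, 15.1%, against 18% over all.

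The width showed the same order. The median width of the window places was 80 and 83 nt at 40 U and 106 and 100 nt at 5 U, with a median difference of 4.5 nt place by place (exact permutation p = 0.33), which was 7.5 nt without 5 U replicate 4 and 2.5 nt without 40 U replicate 2. Both 5 U libraries were wider at 28 places, 38.4%, and narrower at 14, 19.2%, against 22.5% and 15.4% over all matched places. Outside the windows the median widths were 51 and 49 nt at 40 U and 53 and 50 nt at 5 U, which overlap.

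The 3' edge did not move together. Its median difference was −0.5 nt at the window places (exact permutation p = 0.667) and 1.5 nt outside. In the windows, both 5 U libraries lay further 5' at 21 places, 28.8%, and further 3' at 16, 21.9%. Over all matched places these shares were 11.9% and 24.5%. The share further 5' was thus larger in the windows, and the share further 3' was close to that over all matched places, without a test of either.

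**Figure D5:**
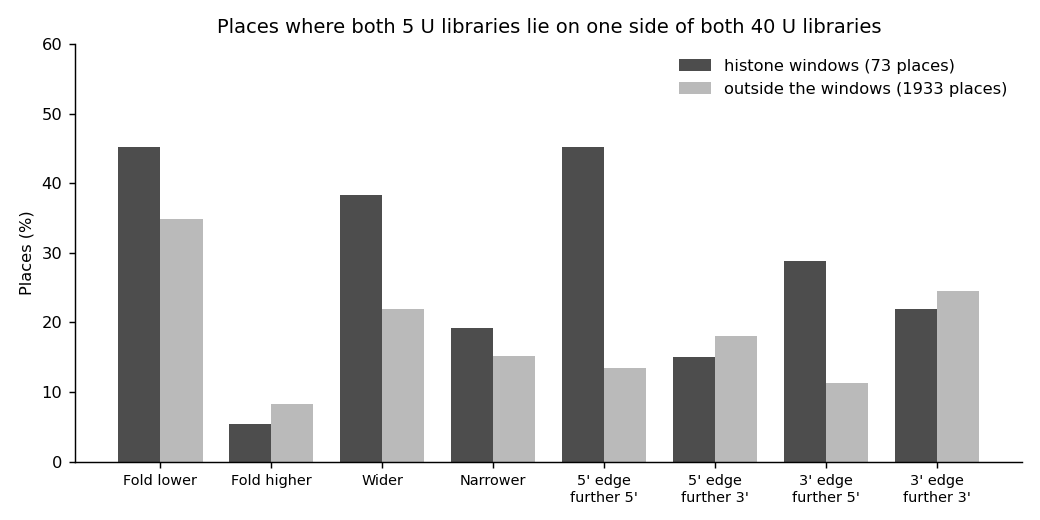
Share of matched places (y axis, %) where both 5 U libraries lie on 1 side of both 40 U libraries, for fold, width, 5' edge and 3' edge (x axis), in the 73 window places (dark) and the 1933 places outside (light). The dark and light bars differ most for the 5' edge further 5', at 45.2% and 13.5%.

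Fitted over only the places made of enriched peaks, 69 places of which 65 lie in the windows, limma called 12 shifted 5' edges, 11 of them further 5' at 5 U. It called 5 widths, 4 of them wider at 5 U, 5 edges on the 3' side, all further 5' at 5 U, and 0 folds, with p-values adjusted over these 69 alone. All of the called places lay in the windows. Among the 2006, the smallest adjusted p of limma in the windows was 0.193 for the 5' edge and 0.111 for fold.

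The 5 largest shifts of the 5' edge in the windows, among places where the amounts did not overlap, were mixed in kind. At chr1:228646115-228646256 (+) the width was 58 and 66 nt at 40 U and 136 and 140 nt at 5 U. Its 5' edge differed by −77 nt and its 3' edge lay within 2 nt in all 4 libraries, so the gain in width was on the 5' side. At chr6:26217549-26217663 (+) the width was 58 and 63 nt at 40 U and 108 and 115 nt at 5 U, and at chr6:26188940-26189060 (−) 70 and 70 nt against 111 and 106 nt.

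The other 2 were uneven between replicates. At chr6:26158419-26158518 (+) the width was 77 and 14 nt at 40 U and 97 and 100 nt at 5 U. At chr6:26199203-26199369 (−) it was 167 and 95 nt at 40 U and 136 and 27 nt at 5 U, and this was the 1 of the 5 whose 5' edge lay further 3' at 5 U, by 52 nt. There the libraries of 1 amount differ by as much as the amounts do.

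The largest shifts of the 3' edge went both ways. At chr6:26124010-26124136 (−) it lay 55 nt further 3' at 5 U, and the mean width was 57.5 nt at 40 U and 114 nt at 5 U (n = 2 each). At chr6:26124532-26124577 (+) it lay 17 nt further 3'. At chr6:27805661-27805755 (−), chr6:27778182-27778308 (+) and chr6:26027127-26027209 (−), the loci named for their overhang, the differences were −22.5, −18 and −17.5 nt.

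The 10 window places with the highest mean fold over the 4 libraries all had a lower mean fold at 5 U, and 9 of them a 5' edge further 5'. Of all 73 window places, 56 had a lower mean fold at 5 U and 45 a 5' edge further 5'. The highest was chr6:27792123-27792251 (+), with 9.29 and 11.00 log2 at 40 U and 9.83 and 9.23 at 5 U, and widths of 75 and 104 nt against 124 and 124 nt. There the folds overlap and the widths do not. The next was chr6:27806737-27806887 (+), with 10.81 and 11.18 at 40 U and 7.48 and 9.42 at 5 U, where the folds are apart by −2.55 (SE 0.67, limma adjusted p = 0.291).

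Next came chr6:26055970-26056103 (−), with 9.71 and 10.38 log2 at 40 U and 7.60 and 8.94 at 5 U. Both of its edges moved the same way, the 5' edge by −15.5 nt and the 3' edge by −12 nt, so its width changed little, from 116 and 114 nt to 116 and 121 nt. It was followed by chr6:27114141-27114278 (−), with 9.50 and 11.12 at 40 U and 8.42 and 7.56 at 5 U, and a 5' edge difference of −28 nt. The next, chr6:26157219-26157341 (+), had 9.13 and 11.54 at 40 U and 7.43 and 8.26 at 5 U, and a 3' edge at the same nucleotide in all 4 libraries.

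The remaining 5 were chr1:228646115-228646256 (+), chr1:149857735-149857883 (−), chr6:26123696-26123850 (−), chr6:26188940-26189060 (−) and chr6:26250375-26250499 (−). Their fold differences ran from −1.83 to −0.57 log2. At chr6:26123696-26123850 (−) the folds were 9.57 and 10.04 at 40 U and 8.75 and 7.20 at 5 U, and the width hardly differed, 155 and 151 nt against 151 and 149 nt. It was the 1 place of the 10 whose 5' edge did not lie further 5' at 5 U. In the same 10 places the RBFOX2 and IgG lists were weak: RBFOX2 peaks there had at most 1.22 log2 and the IgG peaks at most 2.43.

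The places with the largest loss of fold at 5 U were 2 short neighbours in HIST2. At chr1:149824577-149824611 (+) the fold was 7.98 and 7.19 log2 at 40 U and 5.12 and 3.90 at 5 U, a difference of −3.08 (SE 0.62, limma adjusted p = 0.111). At chr1:149824631-149824664 (+) it was 8.13 and 7.29 at 40 U and 5.41 and 4.39 at 5 U, a difference of −2.81 (SE 0.60, limma adjusted p = 0.14). Next was chr1:149858883-149858959 (+), at −2.79 (SE 0.56, limma adjusted p = 0.111), which holds the HIST2 anchor described above.

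Gains of fold at 5 U were few and small. The 4 places apart upwards had differences of 0.84, 0.45, 0.40 and 0.36 log2. The largest was chr6:27775259-27775386 (−), with 7.22 and 8.09 at 40 U and 8.17 and 8.83 at 5 U (SE 0.59, limma adjusted p = 0.641). The others were chr6:26158676-26158834 (+), chr1:149783732-149783880 (−) and chr6:26104192-26104246 (+). At chr1:149783732-149783880 (−) the width was also larger at 5 U, 144 and 143 nt against 114 and 116 nt.

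Outside the windows, 4 matched places were enriched in all 4 libraries. Of these, 3 were neighbours on the minus strand of chromosome 11. The strongest, chr11:118965603-118965866 (−), had 9.43 and 9.59 log2 at 40 U and 7.17 and 8.21 at 5 U, over 259 and 263 nt and 228 and 257 nt. Its neighbour chr11:118966044-118966163 (−) was 43 and 47 nt wide at 40 U and 86 and 120 nt at 5 U, with folds of 5.90 and 6.06 and of 4.59 and 6.50. Between them, chr11:118965965-118966026 (−) had 5.67 and 6.62 at 40 U and 3.997 and 5.81 at 5 U.

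At the strongest of these the folds do not overlap between the amounts, and at chr11:118966044-118966163 (−) the widths do not. RBFOX2 and IgG peaks at the 3 places had at most 1.504 log2. The other place, chr6:31958257-31958281 (+), had 5.37 and 6.71 log2 at 40 U and 4.57 and 4.51 at 5 U, and there RBFOX2 had 3.87 and 4.76 and IgG 4.77.

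The single place that limma called for fold was chr15:45492599-45492658 (−). Its folds were 2.54 and 2.17 log2 at 40 U and −2.45 and −2.25 at 5 U, a difference of −4.70 (SE 0.55, limma adjusted p = 0.00257). It was enriched in no SLBP library, and the IgG list had 2.45 log2 there. The RBFOX2 lists, from the same 40 U as the IgG list, had −0.20 and 0.13 log2 there.

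Among places outside the windows that were enriched in at least 1 library, the 3 with the largest loss at 5 U did not pass the test. At chr6:10887836-10887861 (+) the folds were 4.30 and 5.89 log2 at 40 U and 2.50 and 0.19 at 5 U (limma adjusted p = 0.121). At chr15:96826150-96826171 (−) they were 3.03 and 3.63 at 40 U and 1.91 and −1.42 at 5 U (limma adjusted p = 0.321). At chr17:18965401-18965452 (+) they were 8.24 and 7.35 at 40 U and 6.12 and 3.58 at 5 U, and the IgG list had 8.29 there (limma adjusted p = 0.273). In the other direction, chr1:68150892-68151062 (+) had 1.73 and 1.14 at 40 U and 2.24 and 4.17 at 5 U, which do not overlap. At chr1:89150163-89150250 (+) and chr11:32165335-32165358 (−), the next in order, the amounts overlapped.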

How the data were processed

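Peak lists of 4 SLBP immunoprecipitations were analysed, with 2 RBFOX2 lists and 1 IgG list for values at named places. The files have no header; per the labels, each list belongs to 1 library. The deposited values are the authors' −log10 p, from 0 to a ceiling of 400, and the authors' log2 fold over the paired input. Alignment to hg19 with cutadapt, STAR, GATK, Picard and SAMtools is given, without versions, per the submitters' processing notes, and the sources used here do not name the peak caller. No read counts are in the lists, so folds carry no interval.

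Touching peaks of a list were merged, and a site took the highest fold of its pieces and their outermost edges. Fold, log2 width and both edges were fitted with limma 3.58.1 in R 4.3.3, 5 U minus 40 U without covariates, over all 2006 places matched in the 4 libraries, at an adjusted p of 0.05. In simulated folds for these 2006 places, limma recovered 79% of 100 places shifted by 2 log2 and 100% of 100 shifted by 4, with 1 false call. Every simulated place was given the same spread, the median over the real places. Recovery at places with a wider spread was therefore not tested. In the real folds, window places with differences of −3.08 and −2.79 log2 were not called (limma adjusted p = 0.111 at each). The simulated rates therefore do not give the recovery in the real folds. Values per library were compared by exact permutation tests. Loci and anchors were added after the lists were seen. The windows come from general knowledge, not an annotation, and histone mRNA 3' ends were not used here.

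Named places follow a rule: in the windows, the 10 highest mean folds, the 5 largest fold differences each way and the 5 largest shifts of each edge where the amounts do not overlap, and places enriched at 1 amount only. Outside, they are the places enriched in all 4 libraries, and the 3 largest fold differences each way among those enriched in at least 1. Loci, and the place limma called, were chosen for naming after their values were seen. The libraries compared, windows and lists were chosen with earlier results of these data known. Alternatives changed the overlap, merging, enrichment limits, fold summary, centring and libraries.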

Additional observations from a re-analysis of the deposited data

How the results depend on the processing

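No paired analysis was possible because the 40 U libraries are replicates 1 and 2 and the 5 U libraries replicates 3 and 4, which share no number. Of 140 alternative values, 120 kept their direction or, where the value is a count, stayed near the main count. No p-value entered this tally. With only enriched peaks, limma called 0 folds in place of 1, and 5 widths, 12 edges on the 5' side and 5 on the 3' side in place of 0; fewer places were tested. Leaving out 1 library gave 1 to 14 fold calls, the most without 40 U replicate 1, with the spread then taken from the other amount's 2 libraries, and a median 3' edge shift in the windows of −1 to 0 nt, at 0 without 40 U replicate 1 or 5 U replicate 4. The difference in enriched sites per library, −20, was 4 with peaks as deposited and ran from −44 to 4 with 1 library left out, turning without 40 U replicate 1. In the windows, places enriched at 5 U alone, 11, were 5 with the stricter limits and 13 to 21 with 1 library left out; those at 40 U alone, 3, were 9 and 5 to 23. The causes were not tested. Depth is unknown, and 2 libraries an amount limit every test.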
